A study of Mus musculus with 2 samples.

Results

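The enzymes described here set or remove acetyl and methyl groups on histones and methyl groups on DNA. The group comprises histone deacetylases and sirtuins, histone lysine demethylases and methyltransferases, the core of Polycomb repressive complex 2, and the DNA methyltransferases and TET dioxygenases. Members were chosen by gene symbol alone: names starting with Hdac, Sirt, Kdm, Kmt or Suv and a digit, names starting with Setd, and 10 further genes named singly (Ezh1, Ezh2, Eed, Suz12, Dnmt1, Dnmt3a, Dnmt3b, Tet1, Tet2 and Tet3). Kdm5c, Kdm5d and Kdm6a were left out by the rule. This gave 62 genes with 147 probe sets, of 18193 genes that the array could read singly.

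Expression was measured on 2 Affymetrix arrays, 1 of bone marrow derived macrophages and 1 of osteoclasts. Marrow of C57/Black6 mice aged 8 weeks was grown with M-CSF (macrophage colony-stimulating factor) for 3 days, and the adherent cells served as progenitors for both cultures. The macrophage group was then kept in M-CSF alone and the osteoclast group in M-CSF plus RANKL, the inducer of osteoclast formation, for 6 days. The labels name no allele, do not say how many animals were used and do not say whether both cultures came from the same animal. Each group is a single array, so nothing here has a replicate check and the differences are described without tests or p-values.

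Acetyl groups on histone tails loosen chromatin and mark active promoters and enhancers, and deacetylases remove them as the catalytic part of corepressor complexes. Methyl groups act by position: trimethylation of H3K4 marks active promoters, trimethylation of H3K27 by Polycomb repressive complex 2 and of H3K9 by the Suv39h and Setdb enzymes marks silenced genes, and methylation of CpG dinucleotides stabilises silencing. In the osteoclast lineage these enzymes are known from work on a few genes, above all the silencing of macrophage regulators such as Irf8 and the opening of Nfatc1, the gene of the transcription factor that directs osteoclast differentiation.

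Odorant, vomeronasal and taste receptors are genes of sensory cells, and the cultures were taken not to use them. A signal was counted as measured when it reached the 95th percentile of 86 probe sets of these receptors. This background level was 28.0 for macrophages and 25.6 for osteoclasts, in the deposited intensity units. Signals of the osteoclast array were mostly lower, by a median of -0.45 on the log2 scale over 19467 probe sets measured in both arrays. As deposited, 2454 of 11539 measured genes were higher in the osteoclast array. Differences below are log2 of osteoclast over macrophage relative to this shift, unless the deposited scale is named. Differences are set against the scatter among probe sets that read the same gene, an SD of 0.43 on the log2 scale, which contains no variation between cultures or animals. All 12 osteoclast markers were at least 2-fold higher in the osteoclast array, with a median of 5.03, and 6 of 12 macrophage markers were at least 2-fold lower, with a median of -1.09. Of 11 granulocyte markers, all measured in at least 1 array, 9 were at least 2-fold higher in the osteoclast array (3 as deposited), and their summed signal was 3454 in macrophages and 6398 in osteoclasts. Stromal and osteoblast markers summed to 12340 and 6416 over 10 genes, with Lum and Ibsp below background in both arrays and a median of -0.34 over the 8 measured. Most markers of other cells were below background in both arrays: 4 of 7 for B cells, with summed signals of 181 and 92.0 and a median of -0.32, 5 of 7 for T and NK cells (101 and 102, median 0.33) and 6 of 8 for dendritic cells (311 and 214, median -0.31). Of 8 erythroid and megakaryocyte markers 2 were, and their sums were 8749 and 1857 (median -0.01), mostly Pf4. The arrays also differed in genes of the sex chromosomes: Xist gave 1872 in macrophages and 22.1 in osteoclasts, Eif2s3y 0.571 and 321, and Uty 14.7 and 72.7. Eif2s3y and Uty, on the Y chromosome, were below background in macrophages, and Xist was below it in osteoclasts. The signals thus read as female cells in the macrophage array and male cells in the osteoclast array, which a single animal cannot give. The labels do not give the sex. The part of the marker and sex chromosome differences in the results below was not tested. The RANKL treatment cannot be told apart from the animals behind each array.

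Most of the chromatin enzymes kept the level of the array as a whole, and a small number stood apart from it. Of the 62 members, 59 were measured in at least 1 array, 56 of them in both. Relative to the shift 8 passed 2-fold towards osteoclasts, Dnmt3a, Sirt3, Kdm6b, Sirt5, Kdm8, Setd5, Kmt5c and Kmt2c in order of size, and 3 passed it towards macrophages, Kdm2b, Hdac9 and Ezh1. Those are 13.6% and 5.08% of the measured members, beside 6.5% and 6.34% of all 11539 measured genes. The remaining 48 lay under 2-fold, and 31 members lay within 1 probe set SD of the shift. The median member difference was 0.09, beside 0.00 over all measured genes. On the deposited scale the split turned: Dnmt3a and Sirt3 made up the 2 members past 2-fold upwards and 10 members passed it downwards, beside 2.65% and 16.9% of all genes, with a median of -0.35 beside -0.43. The 10 were Kdm2b, Hdac9, Ezh1, Kdm7a, Setd3, Sirt7, Hdac4, Ezh2, Suz12 and Hdac1. The shares of all genes given here, on each scale, also apply beside the counts of families and lists below. Dnmt3a, Sirt3, Kdm2b and Hdac9 passed 2-fold on both scales and under each other setting that gave them a value, which for Sirt3 leaves out the setting without shared probes. Sirt3 and Hdac9 have 1 measured probe set each, so settings that change only the choice of probe set could not move their values. Because the RNA came from whole cultures, fewer cells using a gene and less RNA per cell cannot be told apart.

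**Figure D1:**
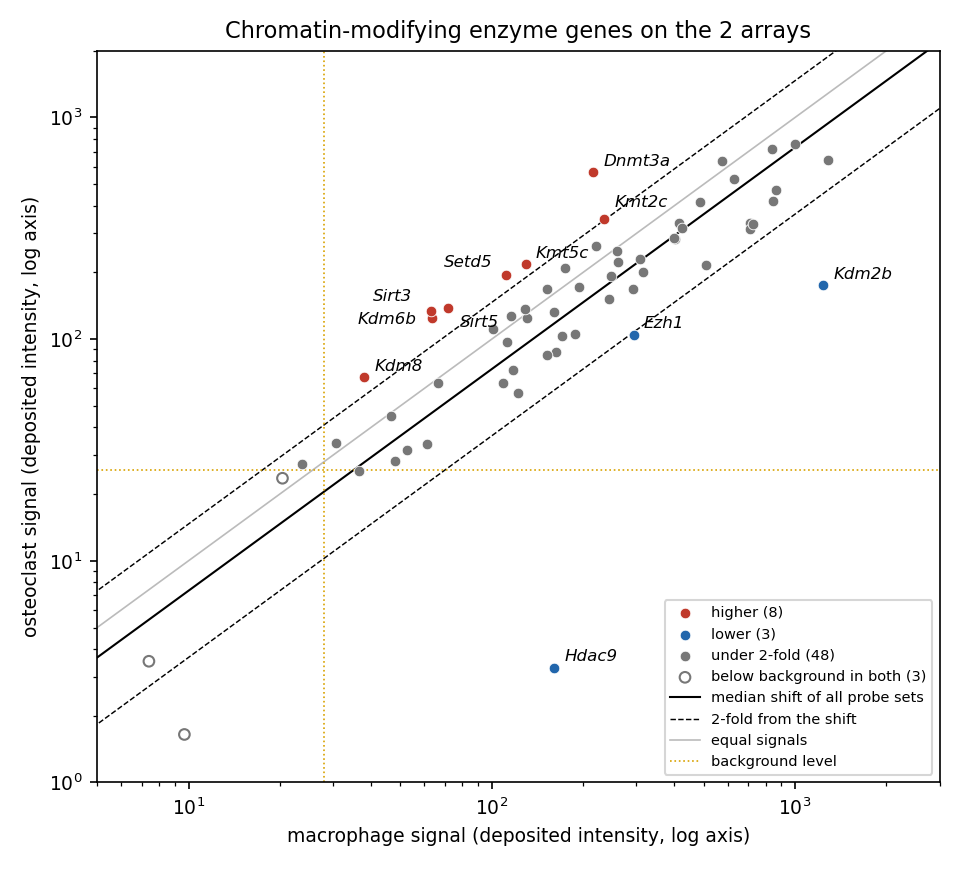
Deposited signal of each chromatin enzyme gene in the macrophage array (x axis) and the osteoclast array (y axis), both on log axes, 1 point per gene. The solid line is the median shift of all probe sets, the dashed lines are 2-fold from it and the dotted lines are the background levels; 8 named genes lie above the upper dashed line and 3 below the lower, with Hdac9 under the osteoclast background level.

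The promoters of these 4 members are shown to set CpG-rich windows beside a CpG-poor window, since several of the enzymes act on or bind CpG dinucleotides. Each is the first start listed for the gene in RefSeq (GRCm38.p6), from 250 bases before to 50 after the start, 5′ to 3′ on the gene's strand, with CG dinucleotides in capitals. Dnmt3a is at chr12:3806730-3807029 on the plus strand, Sirt3 at chr7:140882260-140882559, Hdac9 at chr12:34917046-34917345 and Kdm2b at chr5:122988458-122988757, all 3 on the minus strand.
Dnmt3a: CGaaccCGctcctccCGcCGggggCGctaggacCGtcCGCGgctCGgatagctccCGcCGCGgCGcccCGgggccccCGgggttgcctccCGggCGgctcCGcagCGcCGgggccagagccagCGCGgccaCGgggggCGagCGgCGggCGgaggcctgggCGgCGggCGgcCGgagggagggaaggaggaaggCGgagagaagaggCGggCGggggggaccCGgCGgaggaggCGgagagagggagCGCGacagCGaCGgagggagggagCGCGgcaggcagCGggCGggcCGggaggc
Sirt3: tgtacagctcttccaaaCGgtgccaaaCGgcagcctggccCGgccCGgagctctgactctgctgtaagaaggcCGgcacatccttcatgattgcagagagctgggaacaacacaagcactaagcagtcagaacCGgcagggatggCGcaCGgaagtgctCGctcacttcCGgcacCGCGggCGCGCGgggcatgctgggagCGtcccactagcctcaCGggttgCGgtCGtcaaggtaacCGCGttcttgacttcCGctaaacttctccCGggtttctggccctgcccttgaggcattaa
Hdac9: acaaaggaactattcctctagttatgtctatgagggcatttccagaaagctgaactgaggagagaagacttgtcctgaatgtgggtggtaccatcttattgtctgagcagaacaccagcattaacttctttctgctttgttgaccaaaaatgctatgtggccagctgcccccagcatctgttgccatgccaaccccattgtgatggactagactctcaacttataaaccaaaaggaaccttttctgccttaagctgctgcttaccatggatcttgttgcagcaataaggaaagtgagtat
Kdm2b: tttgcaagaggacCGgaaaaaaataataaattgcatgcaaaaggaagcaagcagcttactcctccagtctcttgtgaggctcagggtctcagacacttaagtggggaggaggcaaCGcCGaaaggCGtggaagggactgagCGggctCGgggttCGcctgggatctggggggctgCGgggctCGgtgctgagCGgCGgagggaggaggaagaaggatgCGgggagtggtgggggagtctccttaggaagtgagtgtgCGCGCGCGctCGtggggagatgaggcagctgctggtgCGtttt
These windows hold 46 CG dinucleotides for Dnmt3a, 23 for Sirt3, 0 for Hdac9 and 18 for Kdm2b. The second listed start of Hdac9 has 3, and the further starts listed for the remaining 3 genes have between 18 and 49. RefSeq promoters were matched for 51 of the 62 members, with 71 windows, some of them overlapping. Their median was 23 CG dinucleotides, beside 7 over all 32851 windows, and 95.8% held at least 1, beside 94.6%. The windows were also searched on both strands for letters bound by factors that act downstream of RANKL. The AP-1 pattern TGANTCA was found in 5 member windows (7.04%, beside 7.81% of all windows), the E-box CACGTG, which Mitf and its relatives bind, in 4 (5.63%, beside 7.15%) and the NFAT core GGAAA in 37 (52.1%, beside 61.3%). None of these patterns contains another. A match describes letters in a window and is not a binding site.

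Dnmt3a, which places new methyl groups on DNA, had the largest difference towards osteoclasts among the members. Its probe set with the highest mean signal gave 215 in macrophages and 568 in osteoclasts, a difference of 1.85 or 3.60-fold (2.64-fold as deposited), and 2.79% of all measured genes lay farther from the shift in either direction. The other 4 probe sets gave 167 and 350, 112 and 360, 78.9 and 396, and 102 and 267. All 5 were thus higher in the osteoclast array, between 1.52 and 2.77 relative to the shift. Dnmt1, which copies methylation onto the new strand at replication, gave 868 and 470 (-0.44), with its 3 probe sets between -0.44 and -0.27. The other de novo enzyme, Dnmt3b, was near background in both arrays and above it in osteoclasts only, at 23.7 and 27.3. Dnmt1 and Dnmt3a thus lay on opposite sides of the shift on all of their probe sets, a difference that was not tested.

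Among the TET dioxygenases, which oxidise methylated cytosine, only Tet2 was measured. Its chosen probe set gave 129 and 136 (0.53), and its other probe set 48.9 and 151 (2.07), so that both lay above the shift but a single value for the gene was not settled. Tet1 (20.4 and 23.6) and Tet3 (7.40 and 3.52) stayed under background in both arrays. Genes that work with DNA methylation went the other way from Dnmt3a where they differed. Of 15 with a probe set, 4 were at least 2-fold lower, beside 6.34% of all genes, none was 2-fold higher, and the median was -0.41, against 7 lower and -0.86 as deposited. Zbtb4, a zinc finger protein that binds methylated CpG, gave 353 and 62.8 (-2.04), and its 4 measured probe sets ran from -2.04 to 0.00. Apobec1, a cytidine deaminase, gave 1609 and 493 (-1.26). Gadd45g, a stress-response gene of a family linked to demethylation, gave 659 and 204 (-1.24), and Mbd1, a reader of methylated CpG, 622 and 221 (-1.04), with 3 measured probe sets from -1.04 to 0.00. Uhrf1, which brings Dnmt1 to replicating DNA, gave 1060 and 520 (-0.58), and Dnmt3l, the catalytically inactive partner of Dnmt3a, was read at 65.4 in macrophages and 8.46 in osteoclasts, where it was below background.

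The zinc-dependent deacetylases differed little apart from Hdac9. All 11 were measured, 10 lay under 2-fold, and their median was 0.14 (-0.31 as deposited). In class I, the nuclear enzymes of corepressor complexes such as Sin3, NuRD and CoREST, Hdac1 gave 1281 and 640 (-0.55), Hdac2 838 and 722 (0.23) and Hdac3, the catalytic subunit of another corepressor complex, 415 and 336 (0.14). Hdac1 thus lay below the shift and the other members of the class above it, none by 2-fold. Hdac8 gave 46.4 and 44.8 (0.40). Hdac8 and Hdac6, a cytoplasmic tubulin deacetylase (112 and 97.2, 0.24), are the 2 members on the X chromosome, and both lay close to the shift. The part of the Xist difference between the arrays in these values was not tested.

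All 4 class IIa deacetylases lay below the shift, with a median of -0.49 (-0.94 as deposited), and none was above 0 on either scale or after quantile normalization. These proteins have little catalytic activity of their own, bind MEF2 transcription factors and leave the nucleus when kinases phosphorylate them. Hdac9, reported as an inhibitor of osteoclast formation, gave 161 in macrophages and 3.30 in osteoclasts, below background. With the osteoclast signal raised to the background level it was lower by at least 4.60-fold after the shift was taken off and by at least 6.27-fold as deposited. The second probe set of Hdac9 was under background in both arrays, at 25.6 and 13.6, so the difference rests on 1 probe set. Hdac4 gave 122 and 57.2 (-0.64), with its other probe sets at 0.01 and 0.22. Hdac5 gave 293 and 169 (-0.35). Hdac7, which restrains Mitf in osteoclast precursors, gave 118 and 72.7 (-0.25), and its other probe set lay at -0.50. In classes IIb and IV, Hdac10 gave 101 and 111 (0.59) and Hdac11 30.7 and 34.1 (0.60), with the other Hdac11 probe set on the other side of the shift at -0.18.

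The MEF2 factors, kinases and 14-3-3 proteins that class IIa deacetylases work with included 4 genes at least 2-fold lower among 22 measured, beside 6.34% of all genes. None was 2-fold higher, and the median was -0.25. As deposited 6 were lower, beside 16.9% of all genes, and the median was -0.70. Mef2c gave 680 and 86.7 (-2.52), and all of its measured probe sets lay between -3.04 and -2.39. Mef2a gave 2816 and 837 (-1.30), but its probe sets ran from -2.19 to 0.70. The calcium-calmodulin kinase genes Camk1d (477 and 83.2, -2.07) and Camk2d (508 and 154, -1.27) also had probe sets on both sides of the shift, from -2.13 to 1.28 and from -1.45 to 1.46. The subunits of the corepressor complexes that carry class I enzymes stayed near the shift. Of 27 measured, 1 passed 2-fold upwards, Sin3b (1024 and 1502, 1.00), and 1 downwards, Mta3 of the NuRD complex (328 and 113, -1.08), whose probe sets reached 0.69, and the median was -0.18, against 0 upwards, 4 downwards and -0.62 as deposited.

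Among the sirtuins, deacylases that consume NAD, the mitochondrial enzymes Sirt3 and Sirt5 stood on the osteoclast side. Sirt3, the main deacetylase of mitochondrial proteins, gave 63.0 and 133 (1.53, 2.89-fold relative to the shift and 2.12-fold as deposited) on its single probe set. Sirt5, which removes succinyl and malonyl groups, gave 71.6 and 138 (1.39), and its other measured probe set 86.3 and 82.2 (0.38). Sirt4, the third mitochondrial sirtuin, did not share this: it gave 60.9 and 33.8 (-0.40). Of the nuclear sirtuins, Sirt1 gave 260 and 249 (0.39) and Sirt6 66.6 and 63.2 (0.37), while the nucleolar enzyme Sirt7 gave 725 and 331 (-0.68). Sirt2, mostly cytoplasmic, gave 400 and 287 (-0.03). The family median was 0.37 over 7 genes (-0.07 as deposited). Of these, 2 were at least 2-fold higher and none lower, beside 6.5% and 6.34% of all genes. As deposited there was 1 of each, beside 2.65% and 16.9%.

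Of the enzymes that make and use NAD, 11 were measured, with a median of 0.13 (-0.32 as deposited). Nmnat1, the nuclear NAD synthase, gave 48.4 and 98.8 (1.48), with its other probe set at 1.23. Nmrk1, a nicotinamide riboside kinase, gave 130 and 37.1 (-1.36). Nampt, the rate-limiting enzyme of NAD salvage, gave 1232 and 639 (-0.50). Past 2-fold the list thus held 1 gene in each direction, and as deposited 1 upwards and 3 downwards.

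The demethylases with a JmjC domain, which use oxygen and 2-oxoglutarate, went both ways. Of 13 members 12 were measured, 2 passed 2-fold upwards and 1 downwards (0 and 2 as deposited), 6 lay above and 6 below the shift, and the median was 0.08 (-0.37 as deposited). Kdm6b, also called Jmjd3, removes methyl groups from H3K27 and has been described at the Nfatc1 promoter during osteoclast formation. It gave 63.7 and 125 (1.42, 2.67-fold relative to the shift and 1.96-fold as deposited), and all 3 of its probe sets lay between 1.02 and 1.56. The osteoclast value was the higher on each of them. Kdm8, a JmjC protein whose activity on histones is debated, gave 37.8 and 67.2 (1.28, 1.78-fold as deposited), with its macrophage signal not far above background.

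Kdm2b, which binds unmethylated CpG islands and brings a variant Polycomb complex to them, had the largest difference among members measured in both arrays. It gave 1240 in macrophages and 175 in osteoclasts (-2.38, 5.20-fold lower relative to the shift), and its other probe set 521 and 152 (-1.33). Both probe sets were thus lower in osteoclasts, by different amounts, and the chosen one is of a kind whose probes can be shared between transcripts. Its near relative Kdm2a, which acts on H3K36, lay on the other side of the shift at 175 and 209 (0.71), with all 3 measured probe sets between 0.67 and 0.79. Kdm7a gave 509 and 216 (-0.79), with other probe sets at -0.32 and 0.17.

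The remaining JmjC demethylases stayed under 2-fold. The H3K9 and H3K36 demethylases Kdm4a, Kdm4b and Kdm4c gave 152 and 85.1 (-0.39), 52.6 and 31.7 (-0.28) and 109 and 63.5 (-0.33), all below the shift, and Kdm4d was below background in both arrays. Kdm3a (402 and 282, -0.06) and Kdm3b (485 and 418, 0.23), which act on H3K9, were near it. Among the H3K4 demethylases, Kdm5b gave 152 and 168 (0.59). The probe sets of Kdm5a did not give a common value: the chosen one gave 261 and 222 (0.22), and others 210 and 74.2 (-1.05), 93.7 and 39.8 (-0.79) and 32.3 and 27.5 (0.22). The flavin-dependent demethylase Kdm1a, known as LSD1, gave 627 and 527 (0.20, its other probe set 0.22) and Kdm1b 163 and 87.6 (-0.44).

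**Figure D2:**
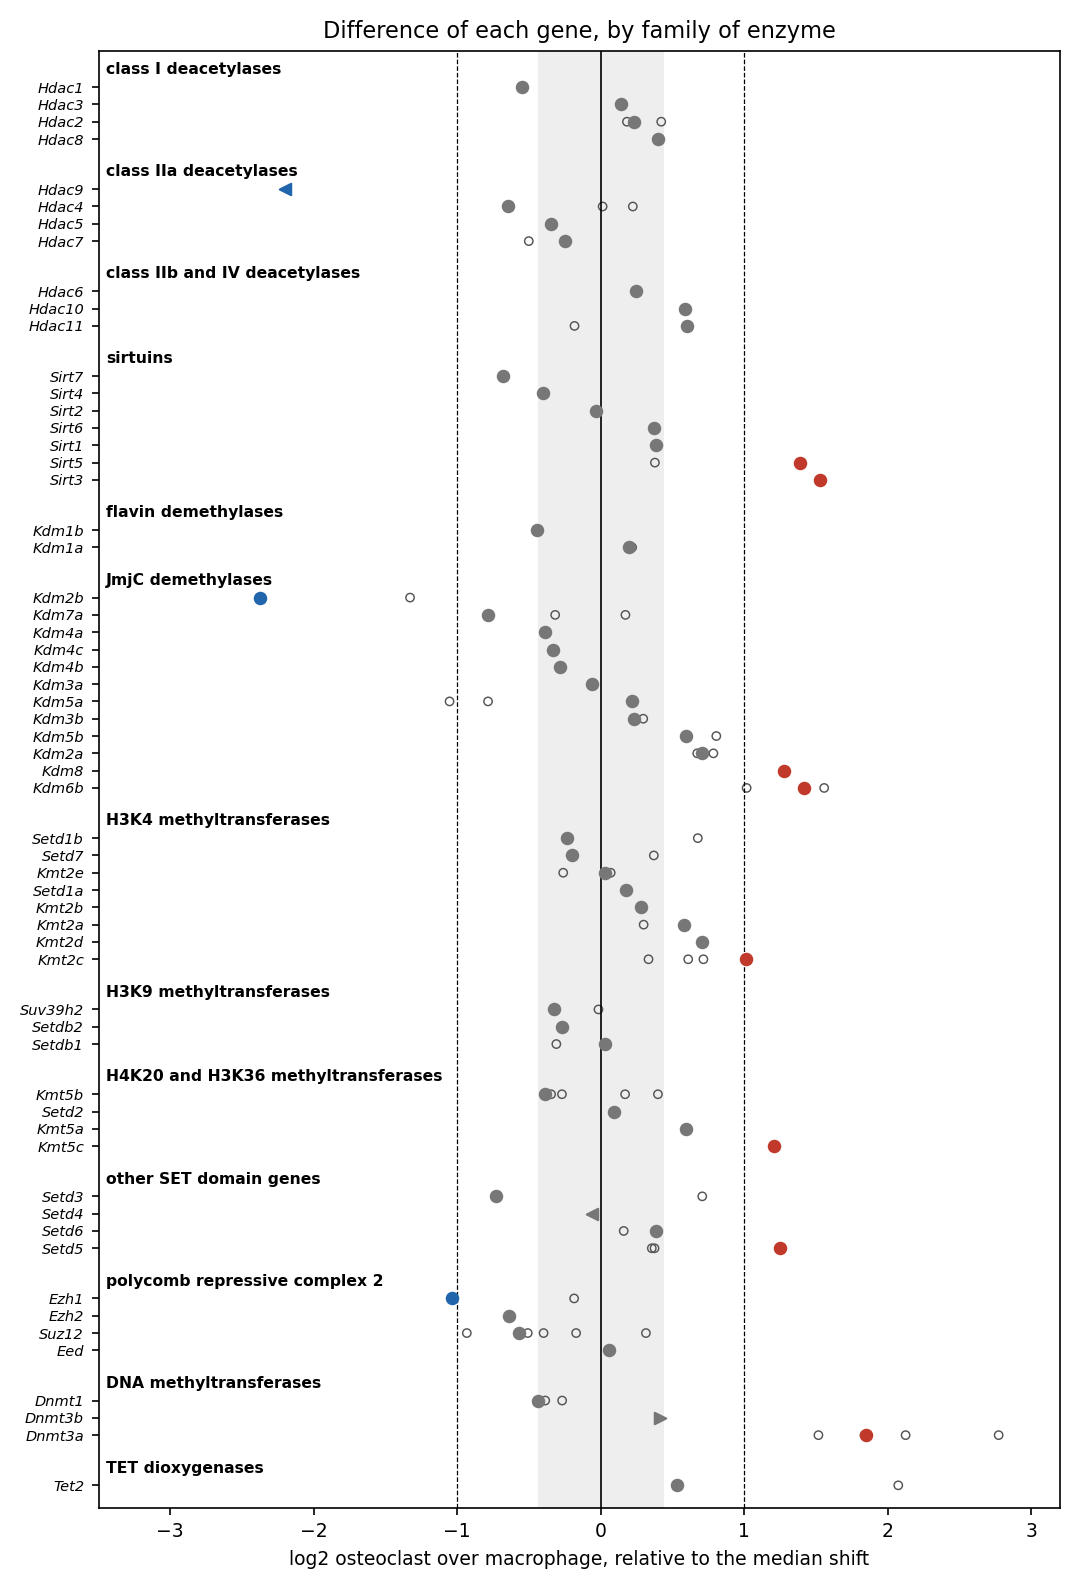
Log2 difference of osteoclast over macrophage relative to the median shift (x axis) for the 59 measured genes, grouped by family of enzyme (y axis). Filled symbols are the chosen probe sets (red at least 2-fold higher, blue at least 2-fold lower, triangles bounds), open circles the gene's other measured probe sets, and the grey band is 1 probe set SD (0.43); the symbols outside the dashed 2-fold lines are those of the 8 higher and 3 lower genes.

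The H3K4 methyltransferases lay mostly above the shift, although the family's direction turned on the deposited scale. Of 8 measured, 6 were above the shift and 3 above 0 as deposited, 1 was at least 2-fold higher and none was lower, with a median of 0.23 (-0.22 as deposited), beside 47.6% of all genes above the shift. Kmt2c, which with Kmt2d places the monomethyl mark of enhancers, gave 234 and 347 (1.02, 1.48-fold as deposited), and its other 3 probe sets lay at 0.72, 0.61 and 0.33. All 4 were on the osteoclast side, but the gene's call rests on the brightest. Kmt2d gave 220 and 263 (0.71). The trimethylating enzymes Kmt2a (116 and 127, 0.58) and Kmt2b (194 and 172, 0.28) and Setd1a (160 and 133, 0.18) were under 2-fold, as was Setd1b, whose probe sets gave -0.23 and 0.68. Kmt2e, a relative without clear catalytic activity, gave 423 and 316 (0.03), and the monomethylase Setd7 315 and 200 (-0.20). The 12 shared subunits and partners of these complexes had a median of -0.05 (0.00 after quantile normalization), with none 2-fold from the shift. Wdr5, the common scaffold, gave 507 and 310 (-0.26).

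The H3K9 methyltransferases differed little. Setdb1, an H3K9 enzyme, gave 309 and 231 (0.03), Setdb2 170 and 104 (-0.27) and Suv39h2 48.1 and 28.2 (-0.32), and the median of these 3 was -0.27. Among the enzymes of H4K20, Kmt5a, which places the first methyl group, gave 574 and 636 (0.60) and Kmt5c, a trimethylating enzyme, 129 and 219 (1.21, 2.31-fold relative to the shift and 1.69-fold as deposited) on a single probe set. Its paralog Kmt5b lay below the shift, at 188 and 105 (-0.39), with 5 probe sets from -0.39 to 0.40. Setd2, the H3K36 trimethylase, gave 247 and 193 (0.09).

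Of the other SET domain genes, Setd5 gave 111 and 194 (1.25, 1.74-fold as deposited). Its other 2 probe sets lay at 0.36 and 0.38, under 2-fold. Setd3, which methylates actin, gave 708 and 313 (-0.73) on the chosen probe set and 48.1 and 57.6 (0.71) on the other. Setd6 gave 131 and 125 (0.39), and Setd4, above background in macrophages only, gave 36.4 and 25.5. A further list of lysine methylating and demethylating enzymes outside the members held 18 measured genes, 1 past 2-fold in each direction, with a median of -0.00, against 0 higher, 4 lower and -0.44 as deposited. Nsd1, an H3K36 dimethylase, gave 172 and 303 (1.27), with its probe sets at 0.89 and above. Riox1, a ribosomal oxygenase, gave 617 and 219 (-1.04).

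Polycomb repressive complex 2 was the family with the lowest median, -0.60. Ezh1, one of its alternative catalytic subunits, gave 293 and 105 (-1.04, 2.05-fold lower), and its other measured probe set 79.1 and 51.0 (-0.19). Ezh2, the catalytic subunit of dividing cells, gave 710 and 334 (-0.64, 2.12-fold lower as deposited). Suz12, which holds the complex together, gave 847 and 418 (-0.57), and 5 of its 6 measured probe sets lay below the shift, from -0.93 to 0.32. Eed, the reader of H3K27 trimethylation, stayed with the array as a whole, at 996 and 759 (0.06). Apart from Ezh1 none of the 4 subunits was 2-fold from the shift. As deposited all but Eed were at least 2-fold lower, beside 16.9% of all genes, and the median was -1.05.

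Some partners of the Polycomb complexes lay farther from the shift than any core subunit, in a longer list than the core. Of 23 partners measured, 1 passed 2-fold upwards and 3 downwards (1 and 5 as deposited). Their median was -0.07, nearer the shift than the median of the core. Jarid2, which guides the complex to its targets, gave 277 and 557 (1.46), with other probe sets at 0.81 and above. Cbx6, a chromodomain subunit of Polycomb complex 1, gave 191 and 34.5 (-2.02), Phc1 86.7 and 27.7 (-1.20) and Phf1 107 and 35.8 (-1.14). The osteoclast signals of all 3 lay close to background. Ezh2, Dnmt1 and Uhrf1 are genes of dividing cells, and the proliferation list, which itself includes Uhrf1, was read beside them. Its median was -0.22 over 29 genes, with summed signals of 43110 and 24970. In it 2 genes were at least 2-fold higher and 1 lower, beside 6.5% and 6.34% of all genes. As deposited these counts were 0 and 13, beside 2.65% and 16.9%. Values of the list ran from -1.39 in Ccne1 to 1.25 in Ccnb2, both cyclin genes, with 11 genes above the shift and 17 below. The replication genes Mcm2 to Mcm7 lay from -0.94 to -0.65 and Pcna at -0.61. The mitotic genes Cenpa (1.14) and Birc5 (0.96), and Mki67 (0.72), lay above the shift. The part of this in the Polycomb and Dnmt1 values was not tested.

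**Figure D3:**
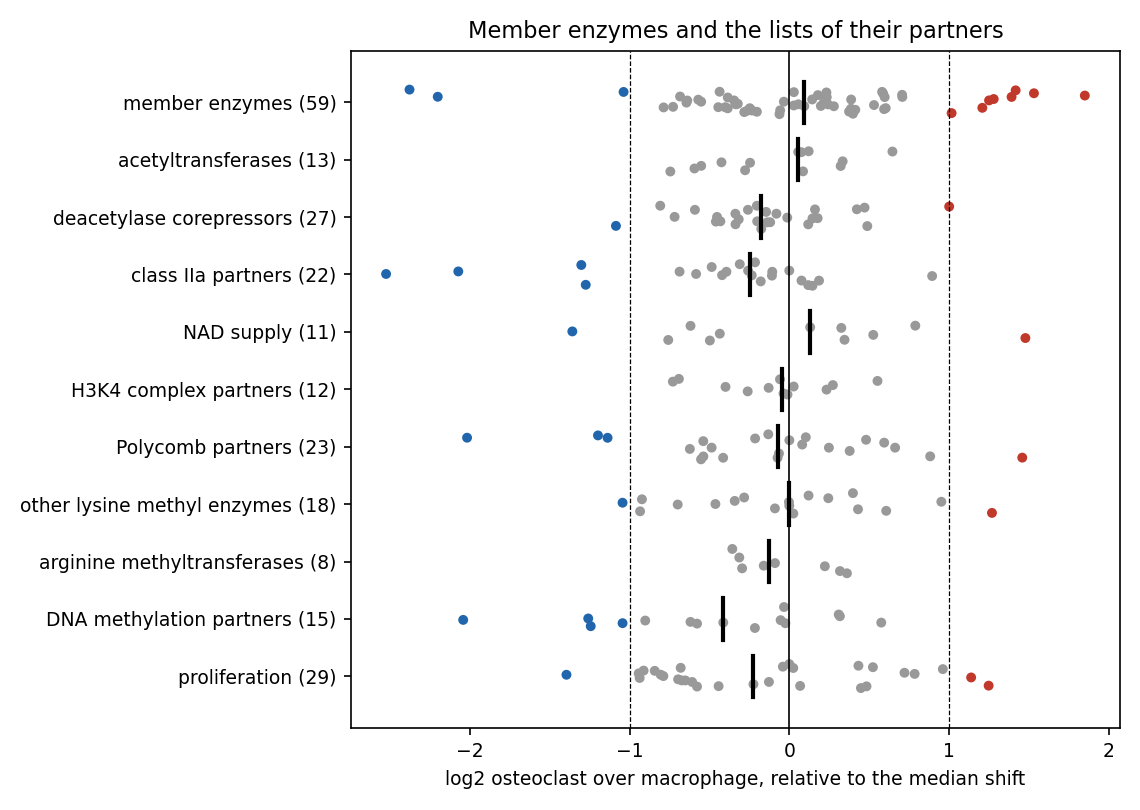
Log2 difference relative to the median shift (x axis) for the member enzymes and for 10 lists of partner or context genes (y axis, measured genes in brackets), 1 point per gene with random vertical scatter and a black bar at the median. Points beyond the dashed 2-fold lines are coloured; list medians lie between -0.41 (DNA methylation partners) and 0.13 (NAD supply).

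By the chosen probe sets, the listed genes described as targets of these enzymes or as repressors in osteoclast formation all lay farther from the shift than Dnmt3a. Over all measured probe sets the sizes overlapped. Dnmt3a ran from 1.52 to 2.77 and Nfatc1 from 1.16 to 3.46. Irf8 ran from -1.95 to -1.62 and Bcl6 from -2.05 to -1.35, and Prdm1 had a single probe set. The target and repressor genes were listed with their behaviour known and are given as values. Nfatc1, linked to Kdm6b, gave 150 and 1207 (3.46). Irf8, linked to methylation by Dnmt3a and to Ezh2, gave 934 and 177 (-1.95). The repressor genes Prdm1, which encodes Blimp1, and Bcl6 gave 143 and 558 (2.41) and 828 and 147 (-2.05). Methylation of DNA or histones was not measured on these arrays.

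The reliability of each value depends on how far a gene's probe sets gave the same reading. Of the members, 30 had several measured probe sets. In 19 of them all lay on the same side of the shift, and in 7 the range was over 1 on the log2 scale. Among the 11 genes past 2-fold, Dnmt3a, Kdm6b and Kdm2b were past it on each measured probe set. Kmt2c, Setd5, Sirt5 and Ezh1 passed on the brightest only, and Sirt3, Kdm8, Kmt5c and Hdac9 had a single measured probe set. Tet2 and Kdm5a, under 2-fold by the chosen probe set, each had another beyond 2-fold.

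**Figure D4:**
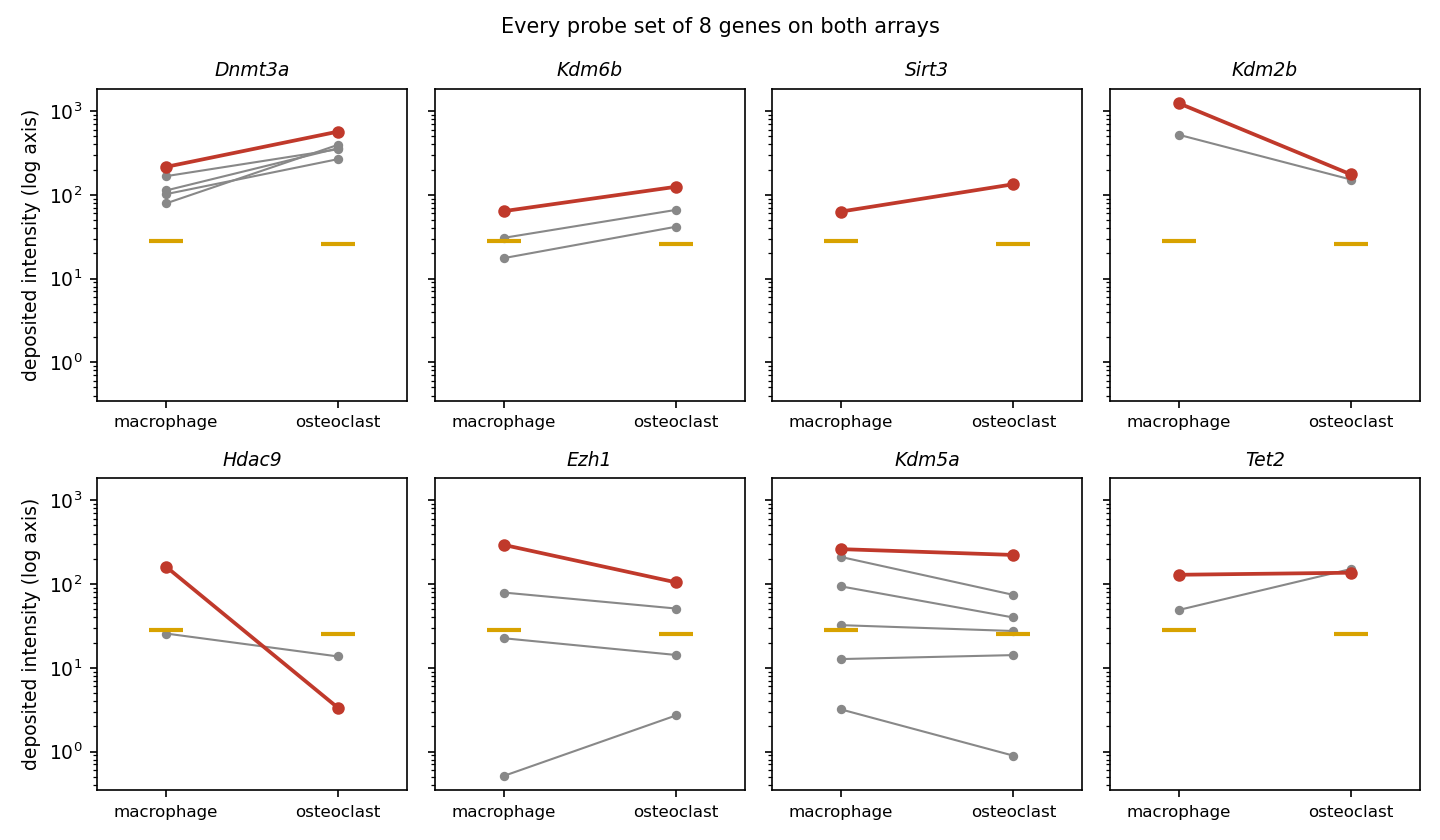
Deposited intensity (y axis, log scale) of every probe set of 8 genes in the macrophage and osteoclast arrays (x axis), 1 line per probe set, with the chosen probe set in red and the background level of each array as a yellow bar. All lines of Dnmt3a and Kdm6b end higher in the osteoclast array and both of Kdm2b end lower, while those of Kdm5a and Tet2 differ among themselves.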

How the data were processed

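The values deposited by the authors are linear intensities of 45101 probe sets per array. The sources used here do not state how probes were condensed, corrected for background or scaled. Per the labels' protocols, 1 µg of total RNA was labelled by the one-cycle method. Medians over probe sets other than the 64 controls were 27.0 and 22.8. The platform annotation, which can be old, gave a single symbol to 34945 probe sets, and all 62 member symbols matched RefSeq (GRCm38.p6). Where a gene had several probe sets, the one with the highest mean of both log2 signals stood for it.

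Signals below the background level were raised to it, such differences are bounds limited to 0, and genes under it in both arrays have none. A lower level, the 40th percentile of all probe sets, let 18.6% and 14.0% of the receptor probe sets count as measured and was kept as an alternative. The shift is the median log2 difference of probe sets above the level in both arrays. The SD between probe sets of a gene came from 12178 probe sets of 4625 genes. Precision is limited by the number of arrays.

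The calculations, in Python 3.11.15 with pandas 2.3.3 and numpy 2.4.6, were tested on simulated data. The members and lists were chosen with earlier results of these data known. Named with values were members at least 2-fold apart, the extremes of each family, X-linked members and a set of known interest, and from each list up to 3 genes per direction past 2-fold. Other members, a few partner and proliferation genes below 2-fold, and Mbd1 and Camk2d as the fourth gene of a direction, were added after their values were seen. Alternatives were the deposited scale, quantile normalization, the lower level, a pseudocount of 16 without a level, the median over a gene's probe sets, probe sets with unshared probes, and folds of 1.5 and 4.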

Additional observations from a re-analysis of the deposited data

How the results depend on the processing

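On the deposited scale 2 members passed 2-fold upwards and 10 downwards, with a median of -0.35, against 8, 3 and 0.09 relative to the shift. The deposited scale leaves the median shift between the arrays in the differences. Whether that shift comes from the scaling of the arrays or from the cells was not tested. At 1.5-fold, 14 members were higher (beside 16.1% of all genes) and 8 lower (15.7%), and at 4-fold 0 were higher (beside 1.31%) and 2 lower (0.91%). Quantile normalization, the lower background level, a pseudocount, the median over probe sets and unshared probe sets gave between 6 and 8 higher members, 2 or 3 lower members and medians from 0.08 to 0.18. Beside these stood 5.94% to 7.11% of all genes higher and 3.91% to 6.99% lower. The median of all genes was 0.00 except with the pseudocount, where it was 0.12, above the member median of 0.08. No member past 2-fold changed sign under any alternative that gave it a value. On the deposited scale none could, because the shift is smaller than 2-fold, and the other folds leave the values unchanged. Of these 11, 4 passed 2-fold under all alternatives that gave a value (Dnmt3a, Sirt3, Kdm2b and Hdac9). For Sirt3 and Hdac9, with a single measured probe set each, alternatives in the choice of probe set could not move the value. The deposited scale took Kdm6b to 0.97, Kdm8 to 0.83, Kmt5c to 0.76, Setd5 to 0.80, Sirt5 to 0.94 and Kmt2c to 0.57. The median over probe sets took Ezh1 to -0.61, Setd5 to 0.38, Sirt5 to 0.88 and Kmt2c to 0.66, and Kdm2b to -1.85. Quantile normalization took Ezh1 to -0.99, and the pseudocount took Ezh1 to -0.96 and Kmt2c to 0.93. Without shared probes Sirt3 has no probe set, and those of Ezh1 are below background in both arrays. No paired analysis was possible because each group has 1 array, and for the same reason no replicate could be left out.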

Other observations

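The enzymes that act opposite to the deacetylases, and those that methylate arginine, stayed close to the array as a whole. All 13 acetyltransferases were measured and none was 2-fold apart relative to the shift, with a median of 0.06 (-0.39 as deposited) and values from -0.74 to 0.65. Crebbp, the acetyltransferase CBP, gave 346 in macrophages and 396 in osteoclasts (0.65), its paralog Ep300 404 and 308 (0.06), and Ncoa3, a nuclear receptor coactivator, 378 and 165 (-0.74). As deposited, 3 of the 13 were at least 2-fold lower. Of 9 arginine methyltransferases 8 were measured, with a median of -0.12 (-0.57 as deposited) and values from -0.36 to 0.36. Prmt1, the main enzyme of asymmetric arginine methylation, gave 1363 and 1282 (0.36), and Prmt5, that of symmetric methylation, 463 and 396 (0.22). Prmt8 was below background in both arrays. On the deposited scale none of the 8 was 2-fold apart. These lists are described by their counts alone, and their difference from the member enzymes was not tested.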
